A study of Arabidopsis thaliana with 6 samples.

Results

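Cytochrome P450 enzymes were followed here in Arabidopsis thaliana seedlings that overexpress ASL9, a gene for a transcription factor of the LBD family found in plants, and in wild-type seedlings. The members were the genes with a symbol built as CYP, a family number of 2 or 3 digits, a subfamily letter and a gene number, and with a probe set that the platform annotation pairs with that gene alone. This gave 22 genes of the 13356 that the annotation names in this way, each read by 1 probe set, a group of short oligonucleotides on the Affymetrix ATH1 array. The gene table of the TAIR10.1 assembly lists 225 symbols of this form, so the 22 are a thin sample of the family. Of them, 18 belong to the CYP71 family, all in subfamily B. The other 4 are CYP51G2, CYP78A9, CYP79A2 and CYP84A4. The CYP81, CYP76, CYP705, CYP94, CYP86 and CYP96 families had no member with a probe set of its own in this annotation (0 each).

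P450s are haem enzymes that insert an oxygen atom into small molecules, with electrons that come from NADPH through a reductase. Plants hold large families of them, which act in the synthesis of defence compounds, hormones, pigments, lignin and surface lipids. Genes of the CYP71B subfamily often lie side by side on a chromosome, in rows that arose by gene duplication. The substrates of many CYP71B enzymes are not known, and a role is given below only where it is.

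The study used 6 arrays, with 3 in each group, and all plants were 2 weeks old and had been grown vertically on agar with Murashige and Skoog salts. The wildtype arrays hold RNA of the accession Col-0, and the ASL9-ox arrays hold RNA of a transgenic line labelled as overexpressing ASL9, whose accession, promoter and number of independent insertions the labels do not give. The tissue is labelled as the aerial parts of seedlings, although the extraction notes mention only harvested seedlings. Whether the 3 samples of a group are separate cultures is not stated either, so the p-values below cover the spread among these arrays, part of which may be technical.

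ASL9 itself had no probe set under the annotation (0 found), so a check of the labels through the transgene was not possible, and each direction below depends on the labels being right. All 5 measured leaf markers were bright, with a summed signal of 11984 to 13399 on the wildtype arrays and 17588 to 18501 on the ASL9-ox arrays. Of 35 root marker names, 3 had a probe set. EXPA7 and EXPA18, which mark root hairs, stayed at or below 13.3 on all 6 arrays. PYK10, a beta-glucosidase gene of roots and hypocotyls, read 2847 to 3168 on the wildtype arrays and 408 to 453 on the ASL9-ox arrays, and with it the summed signal of the 3 genes went from 2851 to 3186 down to 414 to 470.1. Wildtype replicate 2 stood apart. The 3 measured seed markers summed to 1619 on it, against 8.65 and 11.4 on the other wildtype arrays and 12.5 to 14.1 on the ASL9-ox arrays. The part of these differences in the results was not tested, and in whole shoots fewer cells of a type cannot be told apart from less RNA per cell.

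The 22 genes divided into those that the array could follow and those that it could not. Fold changes are on the log2(signal + 16) scale, which understates changes of dim genes, and the dimmest 25% of all probe sets were left out before the test. In this step 13 members were tested and 9 were not. "Rose" and "fell" stand for a higher or lower value in ASL9-ox at an adjusted p below 0.05 in limma's moderated test, adjusted over all 17059 probe sets tested. By that rule 7 of the 13 tested members changed, 3 of them upward and 4 downward, while 41.6% of all probe sets tested changed, 24.6% upward and 17.0% downward. These shares depend on the scaling: with arrays centred on the hybridization controls, which are bacterial and phage transcripts added to each sample, 32.0% of all probe sets tested changed, 13.8% upward and 18.2% downward, and the median log2 fold change went from 0.08 to -0.01. With so few members, 7 of 13 is a share near that of the array as a whole. Wildtype and ASL9-ox arrays did not overlap in 8 of the 13, against 54.0% of all probe sets tested. Of the 13, 2 members (CYP71B22 and CYP71B23) passed with a change of at least 2-fold, against 7.14% of all probe sets tested. That count lay between 1 and 3 under the 19 alternative settings described below.

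**Figure D1:**
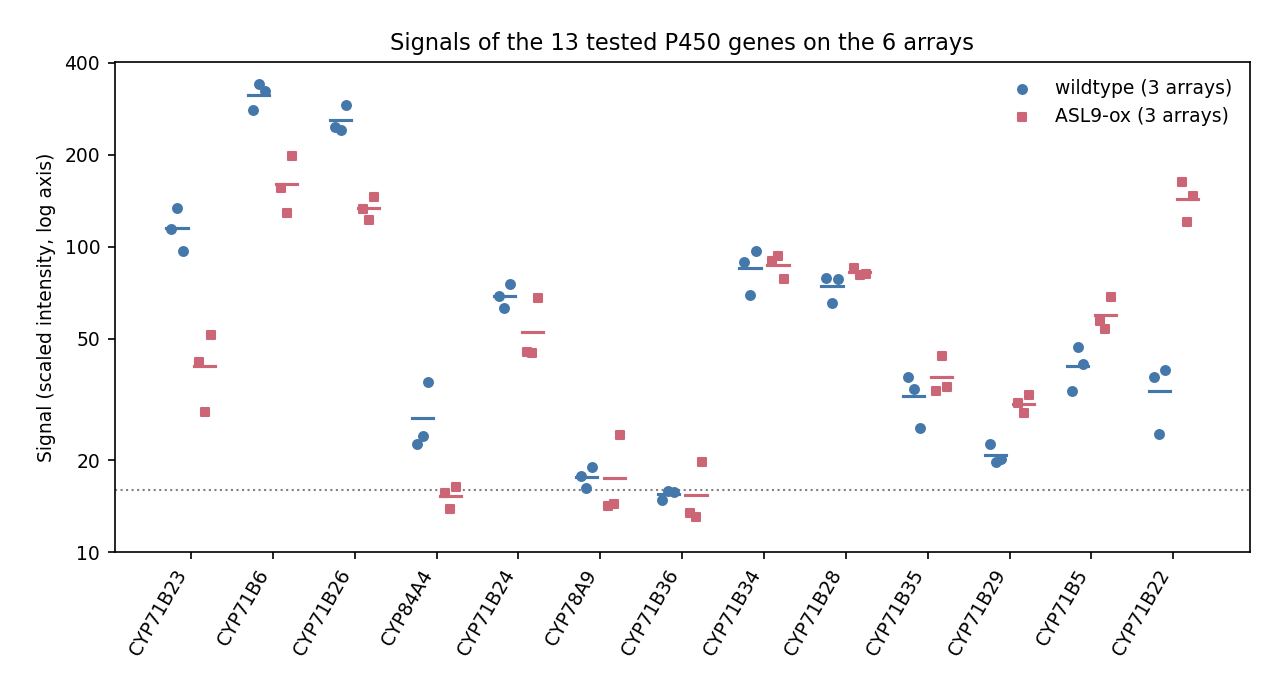
Signal of each of the 13 tested P450 genes (log axis, scaled intensity) on the 3 wildtype arrays (circles) and the 3 ASL9-ox arrays (squares), with short lines at the group means and a dotted line at a signal of 16. Signals compare arrays within a gene and not genes with each other; CYP71B22 is the gene with the largest rise and CYP71B23 the one with the largest fall.

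CYP71B22 (AT3G26200) showed the largest change of the 13 tested members. Its signal was 37.3, 24.4 and 39.4 on the wildtype arrays and 162, 120.1 and 146 on the ASL9-ox arrays. The lowest ASL9-ox array lay far above the highest wildtype array. The group means, 33.7 ± 8.09 and 143 ± 21.2 (SD, n = 3 per group), differed 4.24-fold. The log2 fold change was 1.68 ± 0.14 (SE), with an adjusted p of 2.13e-05 in limma.

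CYP71B23 (AT3G26210), the next gene along chromosome 3, went the opposite way. It read 114, 134 and 96.8 on the wildtype arrays against 41.9, 28.8 and 51.3 on the ASL9-ox arrays. Again the groups were well separated. Its mean signal fell from 115 ± 18.4 to 40.7 ± 11.3 (SD, n = 3 per group), so it was 2.83-fold higher in wildtype, with a log2 fold change of -1.22 ± 0.16 (SE) and an adjusted p of 0.000273 in limma.

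Another pair of CYP71B genes fell to about the same extent as each other. CYP71B6 (AT2G24180, chromosome 2) encodes an enzyme that converts indole-3-acetonitrile, an intermediate of indolic defence metabolism, to indole-3-carbaldehyde and indole-3-carboxylic acid. It read 281, 341 and 322 on the wildtype arrays and 156, 128 and 198 on the ASL9-ox arrays, and the ranges did not overlap. Its log2 fold change was -0.92 ± 0.14 (SE, adjusted p = 0.00071 in limma), and its mean was 1.96-fold higher in wildtype. CYP71B26 (AT3G26290), which lies in the same row of genes as CYP71B22 and CYP71B23, read 246, 241 and 290.1 on the wildtype arrays and 133, 123 and 146 on the ASL9-ox arrays. All 3 ASL9-ox values lay close together and below every wildtype value. The log2 fold change was -0.87 ± 0.10 (SE, adjusted p = 0.000105 in limma), with a mean 1.94-fold higher in wildtype.

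The remaining 2 rises were small. CYP71B5 (AT3G53280) read 33.7, 46.9 and 41.1 on the wildtype arrays and 57.1, 53.6 and 68.5 on the ASL9-ox arrays. Its log2 fold change was 0.42 ± 0.12 (SE, with an adjusted p of 0.0172 in limma). CYP71B29 (AT1G13100, chromosome 1) read 22.5, 19.7 and 20.1 on the wildtype arrays and 30.8, 28.5 and 32.5 on the ASL9-ox arrays, and its log2 fold change was 0.34 ± 0.09 (SE, with an adjusted p of 0.0173). In both genes every ASL9-ox array was above every wildtype array, but neither call held in all settings. When arrays were centred on the hybridization controls, the adjusted p was 0.0775 for CYP71B5 and 0.135 for CYP71B29. The members then divided into 1 that rose and 5 that fell, in place of 3 and 4, while over the whole array the calls moved from 4203 higher and 2893 lower to 2353 higher and 3100 lower. CYP71B5 was also lost without wildtype replicate 1 (0.0564) or ASL9-ox replicate 3 (0.0629), and CYP71B29 without wildtype replicate 2 (0.0503), wildtype replicate 3 (0.0540) or ASL9-ox replicate 3 (0.0574). Without ASL9-ox replicate 3, 1 member rose and 5 fell, against 20.3% upward and 15.1% downward over all probe sets tested. Over all alternatives the adjusted p of CYP71B5 ran from 0.0121 to 0.0775 and that of CYP71B29 from 0.0104 to 0.135.

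Outside the CYP71 family 1 of the 2 tested members changed. CYP84A4 (AT5G04330, chromosome 5), a relative of the lignin enzyme ferulate 5-hydroxylase that acts in the synthesis of arabidopyrones, read 22.6, 23.9 and 36.0 on the wildtype arrays and 15.5, 13.8 and 16.3 on the ASL9-ox arrays. It fell by 0.47 on the log2 scale (SE 0.13, adjusted p = 0.0189 in limma), from a mean of 27.5 ± 7.4 to one of 15.2 ± 1.28 (SD, n = 3 per group), which is near the 16 that was added to all signals. Without wildtype replicate 3, which had its highest value, the log2 fold change was -0.33 and the adjusted p 0.0614, and without ASL9-ox replicate 2 the adjusted p was 0.0545 (0.0128 to 0.0614 over all alternatives). CYP78A9 (AT3G61880), which promotes the growth of fruits and seeds, read 17.7, 16.2 and 19.0 on the wildtype arrays and 14.2, 14.3 and 24.1 on the ASL9-ox arrays. These ranges overlapped, and the log2 fold change was -0.02 with a 95% interval of -0.32 to 0.28 (adjusted p = 0.936).

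The other 5 tested CYP71B genes did not pass. CYP71B24 (AT3G26230) came closest, with 68.9, 62.8 and 75.4 on the wildtype arrays and 45.1, 44.8 and 68.0 on the ASL9-ox arrays. ASL9-ox replicate 3 lay within the range of the wildtype arrays and the other 2 lay below it. The log2 fold change was -0.32 (95% interval -0.63 to -0.02, adjusted p = 0.0825), and it was -0.48 without ASL9-ox replicate 3 (adjusted p = 0.00814) and -0.42 with centring on the hybridization controls (0.0286), within a range of 0.00814 to 0.230 over all alternatives. CYP71B28 (AT1G13090), which has CYP71B29 as its neighbour, read 78.8, 65.2 and 78.4 on the wildtype arrays and 85.0, 81 and 81.6 on the ASL9-ox arrays. These ranges did not overlap, yet the log2 fold change was only 0.13 (95% interval -0.07 to 0.33, adjusted p = 0.269). For CYP71B34, CYP71B35 and CYP71B36, which follow each other on chromosome 3, the groups overlapped and the log2 fold changes were 0.03 (-0.23 to 0.29), 0.15 (-0.13 to 0.42) and -0.01 (-0.28 to 0.25), each with its 95% interval. CYP71B36 read 13 to 19.7 over the 6 arrays, a range around the signal of 16.

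**Figure D2:**
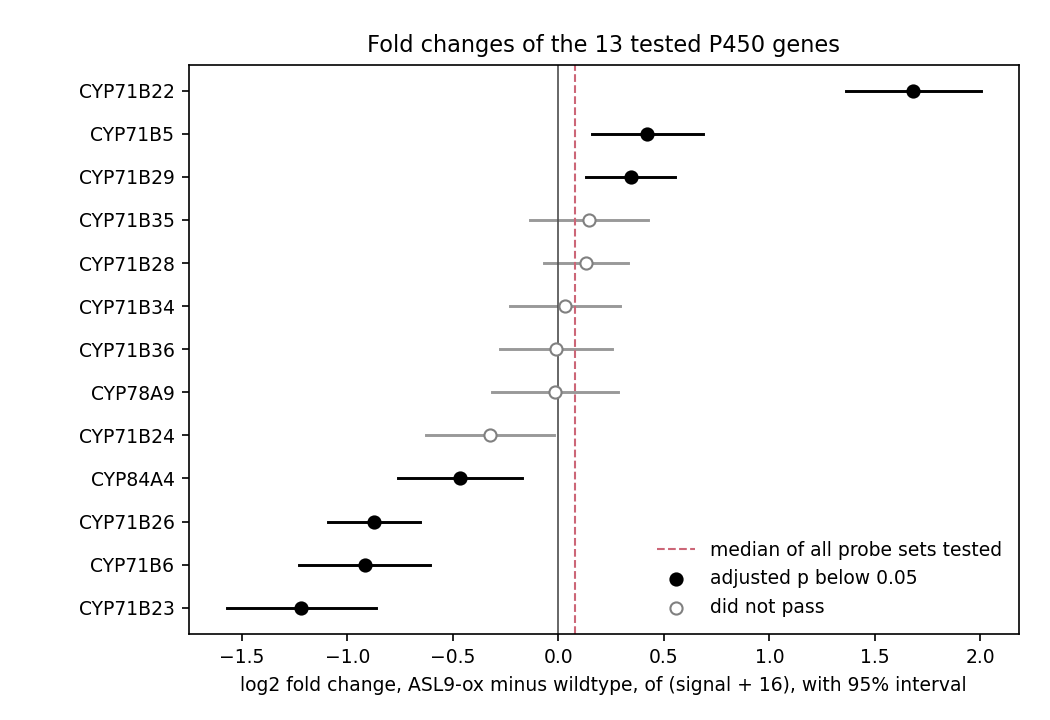
Log2 fold change (ASL9-ox minus wildtype, of signal + 16) of the 13 tested P450 genes with 95% intervals from limma, filled where the adjusted p was below 0.05. The values run from -1.22 (CYP71B23) to 1.68 (CYP71B22), and the dashed line marks the median of all probe sets tested, 0.08.

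The changes among the 11 tested genes of the CYP71 family, all in subfamily B, had no common direction. With the scaling as deposited 3 rose, 3 fell and 5 did not pass, against 24.6% upward and 17.0% downward over all probe sets tested. This even split depended on the settings. With centring on the hybridization controls CYP71B22 rose, while CYP71B6, CYP71B23, CYP71B24 and CYP71B26 fell (13.8% upward and 18.2% downward over all). At a threshold of 0.01 CYP71B22 rose, while CYP71B6, CYP71B23 and CYP71B26 fell (14.9% upward and 11.9% downward over all). The median log2 fold change of the 11 was 0.03, a value whose sign depended on the scaling and on other settings. Without wildtype replicate 2, for example, it was -0.0046. Over all 13 tested members it was -0.01, against 0.08 over all probe sets tested. The median size of the change, regardless of sign, was 0.34 for the members and 0.24 for all probe sets tested. The 2 tested members outside the family had log2 fold changes with a median of -0.24.

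Most of the CYP71B genes share their place in the genome, which the choice of members did not use. In the gene order of TAIR10.1, 18 P450 genes stand within a stretch of 25 genes on chromosome 3, from CYP71B16 to CYP71B37. Of these 18, 11 were members and 7 were tested. In the stretch 1 gene rose (CYP71B22), 2 fell (CYP71B23 and CYP71B26) and the other 4 did not pass. These 3 calls among 7 tested genes are a share near the 41.6% of all probe sets tested. The gene that rose and the gene that fell most are direct neighbours, and next to CYP71B22 on its other side lies CYP71B21, which was too dim to test. A smaller row on chromosome 1 holds CYP71B27, CYP71B28 and CYP71B29 among 5 P450 genes, and a further one on chromosome 3 begins with CYP71B5 and holds CYP71B31. In that last row CYP71B30P, the gene after CYP71B5, also has a probe set paired with it alone. Its symbol ends in a letter, so the naming rule left it out and it was not followed here.

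**Figure D3:**
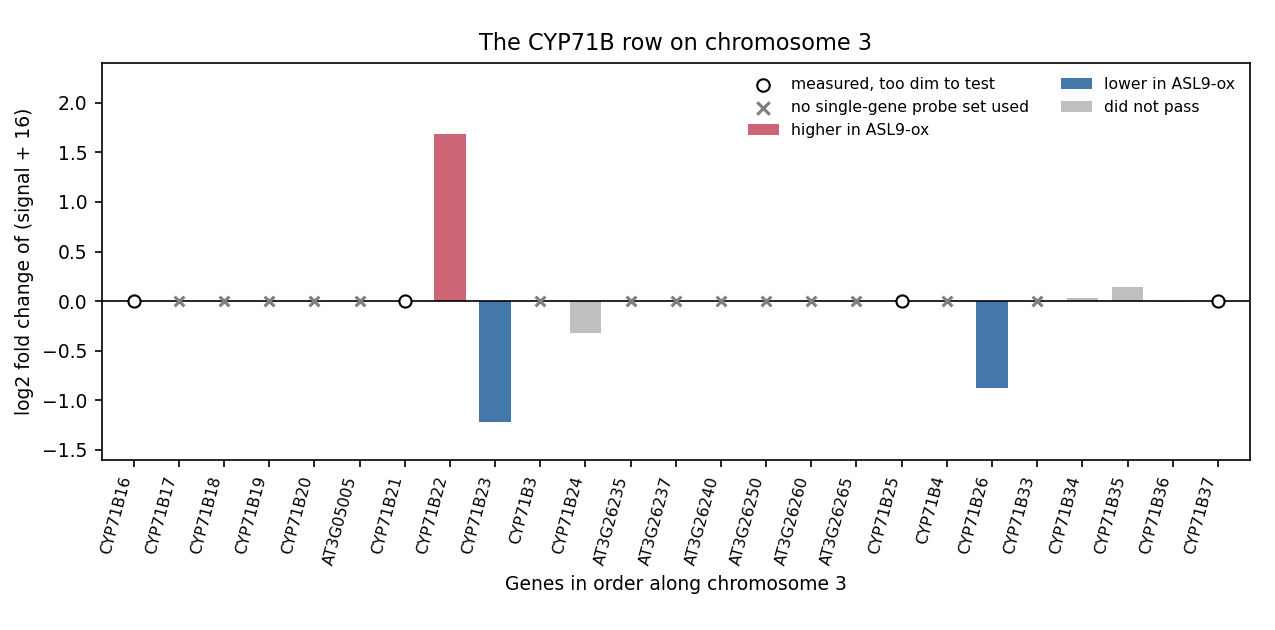
Log2 fold change (ASL9-ox minus wildtype, of signal + 16) along the 25 genes of the chromosome 3 row, in gene order; open circles are members too dim to test, crosses are genes for which no single-gene probe set was used, and the value of CYP71B36, -0.01, is too small to show as a bar. CYP71B22 (1.68) and its neighbour CYP71B23 (-1.22) point in opposite directions.

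Neighbouring genes were compared on the same array through the log2 ratio of their signals, for the 7 pairs of tested members that lie at most 2 steps apart in gene order. Such a ratio is unaffected by a scaling that multiplies all values of an array, except through the added 16, and its change between the groups shows unequal change of the genes. The ratio of CYP71B22 to CYP71B23 was -1.29, -1.89 and -1.03 on the wildtype arrays and 1.62, 1.6 and 1.27 on the ASL9-ox arrays, a shift of 2.90. Only the shift can be read, since the level of a ratio between different probe sets, and so its sign, also depends on the probes. The ratio of CYP71B23 to CYP71B24 went from a mean of 0.62 ± 0.31 to -0.28 ± 0.18 (SD, n = 3 per group), so of these neighbours CYP71B23 changed more. The ratio of CYP71B26 to CYP71B34 went from 1.45 ± 0.13 to 0.54 ± 0.22, and that of CYP71B28 to CYP71B29 from 1.29 ± 0.10 to 1.08 ± 0.06. In these 4 pairs the groups did not overlap, and in the 3 pairs within CYP71B34, CYP71B35 and CYP71B36 they did, with shifts of -0.11, 0.05 and 0.16. This is no separate result, since each of the 4 pairs holds a gene that passed above and the 3 pairs hold none. For CYP71B22 and CYP71B23, separated in opposite directions as single genes, the ratio had to separate. By an exact two-sided permutation test each of the 4 had p = 0.1, the smallest that 3 arrays against 3 allow, and 0.175 after adjustment over the 7 pairs, so this design could not reach 0.05. Copies in such a row can be alike in sequence. All 22 probe sets carry the plain name ending that Affymetrix used for oligonucleotides specific to 1 transcript. Whether some of them nevertheless read a neighbour was not tested.

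**Figure D4:**
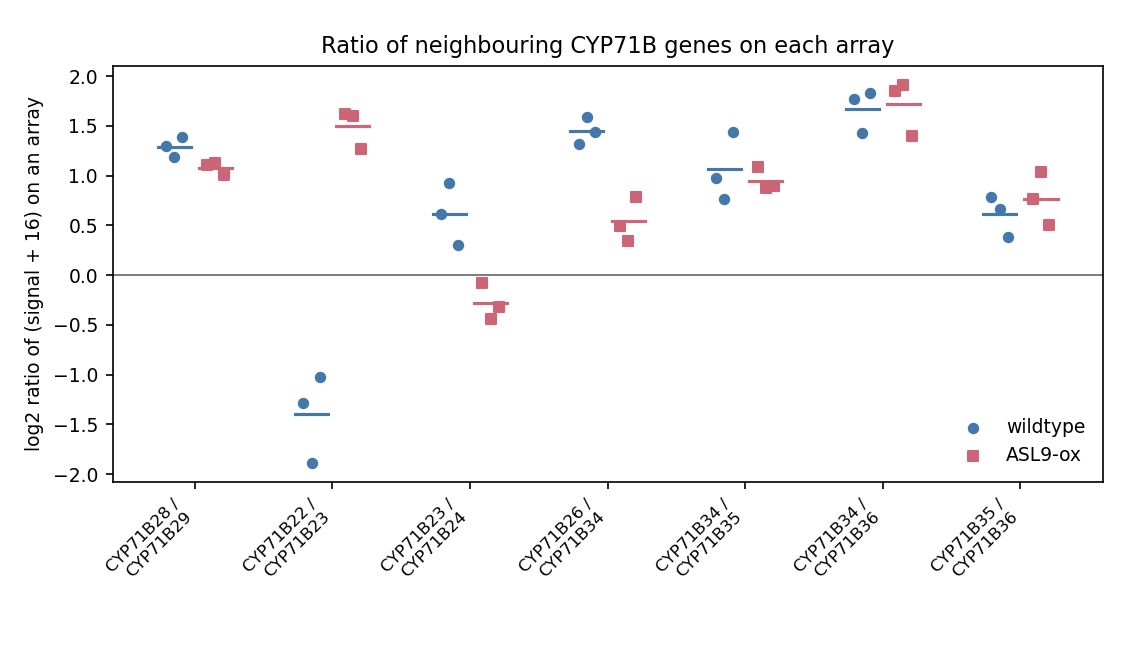
Log2 ratio of the signals (each + 16) of neighbouring CYP71B genes on every array, for 7 pairs, with lines at the group means (circles wildtype, squares ASL9-ox). Only the shift between the groups can be read, not the level of a ratio: it is 2.90 for CYP71B22 over CYP71B23 and between -0.91 and 0.16 for the other 6 pairs.

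The 9 members left out as dim never exceeded a signal of 12.5 on any array. They were CYP71B16, CYP71B21, CYP71B25, CYP71B27, CYP71B31, CYP71B37, CYP71B38, CYP51G2 and CYP79A2. CYP79A2, which converts phenylalanine to its aldoxime on the way to benzyl glucosinolate, read at most 1.27. CYP71B31, which acts on linalool in flowers, read 0.164, 0.315 and 0.285 on the wildtype arrays and 5.06, 5.55 and 0.221 on the ASL9-ox arrays, with overlapping groups. CYP71B38 was the only dim member whose groups did not overlap, at 0.894 to 1.06 on the wildtype arrays and 1.24 to 5.09 on the ASL9-ox arrays. For scale, the groups did not overlap in 54.0% of the probe sets bright enough to be tested. CYP71B37 read 12.5 on wildtype replicate 2 and 2.5 to 4.77 on the other arrays. CYP71B27 and CYP51G2, a copy of the sterol 14-demethylase gene, are classed as transcribed pseudogenes in the gene table. The values used here have no detection calls, so signals of this size could not be set against background. When no filter was applied none of the 9 passed (0 at the adjusted threshold in limma), while 29.3% of all probe sets did. The share among probe sets as dim as these was not computed.

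Without wildtype replicate 2, the array with seed marker signal, the log2 fold changes of the changed genes were 1.54 for CYP71B22, -1.12 for CYP71B23, -0.86 for CYP71B6, -0.92 for CYP71B26, 0.50 for CYP71B5, 0.32 for CYP71B29 and -0.52 for CYP84A4. Of the 7 calls 6 held, and CYP71B29 narrowly missed the threshold. Over all probe sets tested the share called was 35.0% in this fit, against 41.6% with all arrays. This array had the lowest wildtype value of CYP71B22 and the highest of CYP71B23 and CYP71B6, so the first 3 changes were somewhat smaller without it.

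Of the 11 function lists drawn up for the P450s and their redox partners, 6 had no measured gene. They covered cutin and suberin, jasmonate, brassinosteroid and gibberellin enzymes, enzymes of abscisic acid, cytokinin and strigolactone metabolism, and P450 genes known by other symbols together with the reductases and cytochrome b5 proteins that feed them. The other 5 lists held 6 measured genes, all of them members described above. In the indole and glucosinolate list 1 gene fell (CYP71B6) and CYP79A2 was dim, and in the phenylpropanoid list CYP84A4 fell. The lists for organ size, sterols and carotenoids, and terpenes held CYP78A9, CYP51G2 and CYP71B31, with no call among them. Hormone metabolism by P450s was therefore not followed here.

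**Figure D5:**
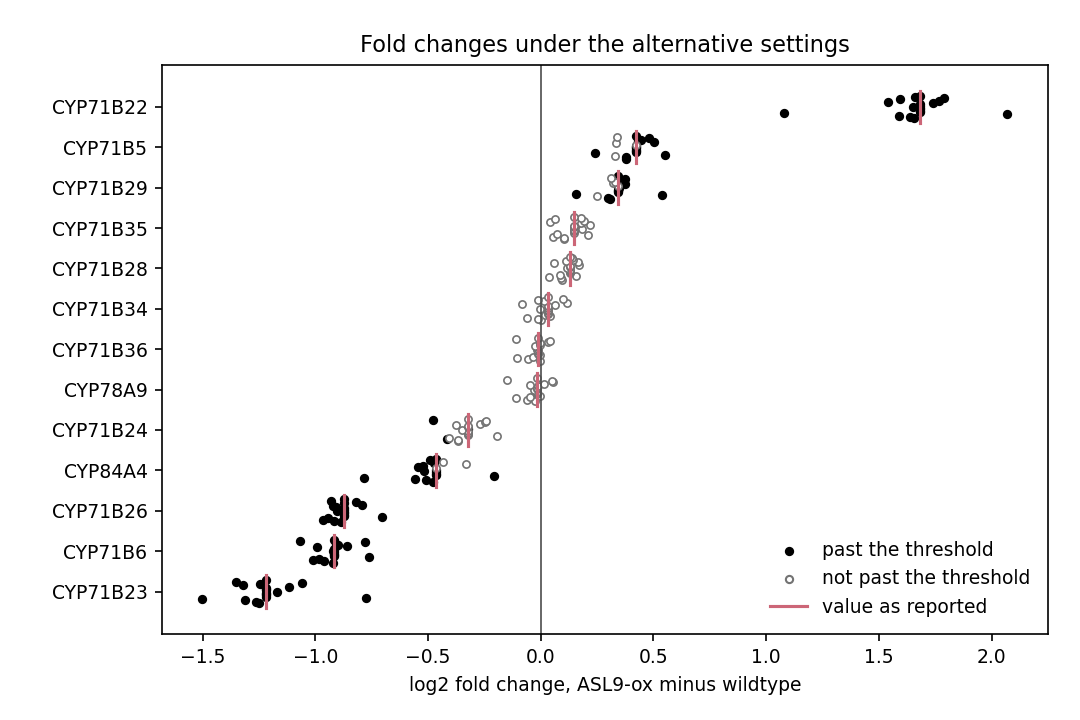
Log2 fold change of the 13 tested P450 genes (ASL9-ox minus wildtype) under 19 alternative settings, filled where past the threshold, with a vertical line at the value as reported. The setting with the dimmest 50% left out has points for 8 of the genes only. CYP71B22, CYP71B23, CYP71B26 and CYP71B6 are filled throughout, whereas CYP71B5, CYP71B29, CYP84A4 and CYP71B24 have both filled and open points.

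CYP71B22, CYP71B23, CYP71B26 and CYP71B6 passed under each of the 19 alternatives. Their log2 fold changes ranged from 1.08 to 2.07, from -1.50 to -0.77, from -0.97 to -0.71 and from -1.07 to -0.76, and their adjusted p-values in limma were at most 0.000206, 0.00173, 0.000789 and 0.00443.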

How the data were processed

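RNA of 6 seedling samples was hybridised to 1 array each. Per the submitters' processing notes, the authors used MAS5 and GCOS (versions: not given in the sources used here) to make the deposited intensity values, 1 signal per probe set. The 2% trimmed mean of each array was 100.01, which shows a common scaling that hides shifts shared by all transcripts. Probe sets were named through the supplied platform annotation, which pairs 13513 with 1 gene, 503 with several and leaves 8794 of 22810 unnamed here. All 22 members matched the gene table.

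Signals were taken as log2(signal + 16). Removed were 64 Affymetrix controls and the 25% of the remaining probe sets with the lowest mean log2 value over the 6 arrays, leaving 17059. ASL9-ox was set against wildtype by limma 3.58.1 under R 4.3.3 (lmFit, eBayes with trend, two-sided, Benjamini-Hochberg over all probe sets tested). The procedure was also run on simulated data with far fewer changed probe sets than were called here. That run was a check of the code and not of these calls. Each array being 1 of 3, the number of arrays limits the precision. Members, gene lists and tests were chosen with earlier results of these data known. The naming rule took the largest changes overall and per family, list members and neighbouring pairs, which came to include every tested member, and the dim ones are named beside them. Ratios of neighbours were tested with scipy 1.17.1, and figures drawn with matplotlib 3.10.9.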

Additional observations from a re-analysis of the deposited data

How the results depend on the processing

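The count of 7 changed members lay between 4 and 8 under 19 alternatives, while the share of all probe sets called, 41.6%, lay between 26.8% and 47.7%. At a threshold of 0.01 (26.8% of all), 4 members passed, 1 of them higher, and 0 outside CYP71. With centring on the hybridization controls (32.0% of all) 1 member was higher. A pseudocount of 64 left 1 member changed at least 2-fold, and a pseudocount of 1 gave the members outside CYP71 a median of -0.42. With the dimmest 50% left out (47.7% of all), 8 members were tested, the CYP71 median was -0.14 and 0 members outside CYP71 were called, because none of them was tested. Without 1 array at a time, 5 to 7 members and 32.8% to 37.5% of all were called (5 to 6 in CYP71, 0 to 1 outside it). These were 1 to 3 rises and 3 to 5 falls, 2 to 3 of them at least 2-fold. The medians then lay between -0.11 and 0.04 for all, -0.0046 and 0.10 for CYP71, and -0.32 and -0.16 for the others. Genes near 0 changed sign without passing. CYP71B34 was -0.0100 with centring on the array median, -0.0590 with hybridization controls and -0.0031 with array weights. Without 1 array at a time it lay between -0.0817 and 0.117, CYP71B36 between -0.108 and 0.0408 and CYP78A9 between -0.152 and 0.0529. In the fit with a replicate block (36.2% of all) 8 members passed, CYP71B24 in addition (adjusted p = 0.0491 in limma). Deviations of same-numbered arrays from their group means correlated at r = -0.12, -0.06 and 0.02, and pairing by number was not assumed. With no filter 29.3% of all were called. Each member has 1 probe set, so averaging probe sets changed no member's value, and it was not run for the share over the whole array. For the other moved values the cause was not tested. Dim signals, without detection calls, limit 9 of the 22 genes.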
